A study of Mus musculus with 2 samples.

Results

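Integrins and the other receptors with which blood-forming cells enter the marrow and stay in it were examined in Lin-c-kit+Sca1+ cells. This fraction of mouse bone marrow, enriched for blood stem cells and early progenitors, is negative for antigens of mature lineages and positive for Kit, the receptor for stem cell factor, and for Sca-1. The set holds 10 genes, chosen by name as receptors of marrow homing and retention, of 8251 genes that the array names. They are Itgb1, Itga4, Itga5, Itga6, Itgb2, Itgal, Selplg, Cd44, Cd47 and Cxcr4. Every probe set annotated to one of them alone was taken, which gave 16 of the 10833 probe sets that name 1 gene. Of the members 4 had several probe sets and 6 had a single one. The data are 2 arrays, sample 1 and sample 2, both of sorted Lin-c-kit+Sca1+ cells from bone marrow. They form 1 group, with no treatment, genotype, strain, age or second condition in the labels. The RNA of both went through 2 rounds of amplification, and the labels do not say if they were taken from separate animals or sorts. Any spread given here is between these 2 samples and could be technical. With 1 group of 2 samples no gene can be tested, and no p-value is given.

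An integrin is a pair of an alpha and a beta subunit that spans the membrane, and the pair decides which ligand is bound. Integrins switch from a resting to a binding state when talin and kindlin attach to the tail of the beta subunit, a step that chemokine receptors can trigger. A progenitor that returns to the marrow first rolls on selectins of the vessel wall, for which Selplg and Cd44 carry the sugars. It then responds through Cxcr4 to the chemokine Cxcl12 and arrests on Vcam1 and Icam1 through integrins. Cd47 is the ligand of the macrophage inhibitory receptor Sirpa and was first known as a protein bound to integrins.

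Signals are quantile-normalized intensities. A signal is called above the control level if it exceeded the 90th percentile of the probe sets for bacterial genes on the same array, 12.1 in sample 1 and 8.92 in sample 2. A gene counted as measured if any of its probe sets passed in both samples, and its value is that of its strongest probe set. For differences, signals under 20 were set to 20, the floor, so a fold against a signal at the floor is a lower bound. Differences are log2(sample 1) minus log2(sample 2), which is only a way of writing them, since replicates have no order.

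Of the 10 receptors, 7 passed the control level in both samples, or 70%, against 57.0% of all 8251 genes. The 7 were Itgb1, Itgb2, Itgal, Itga6, Selplg, Cd47 and Cxcr4. The 3 that were not were Itga4, Itga5 and Cd44. Of their 16 probe sets 9 passed in both samples, or 56.2%, against 50.2% of all probe sets that name 1 gene. Another 2 passed in 1 sample and 5 in neither. Only 4 of the 10 (Itgb1, Itgal, Selplg and Cd47) lay over the floor in both samples, against 40.6% of all genes. For 10 genes, shares this close to those of all genes are no result about the set.

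**Figure D1:**
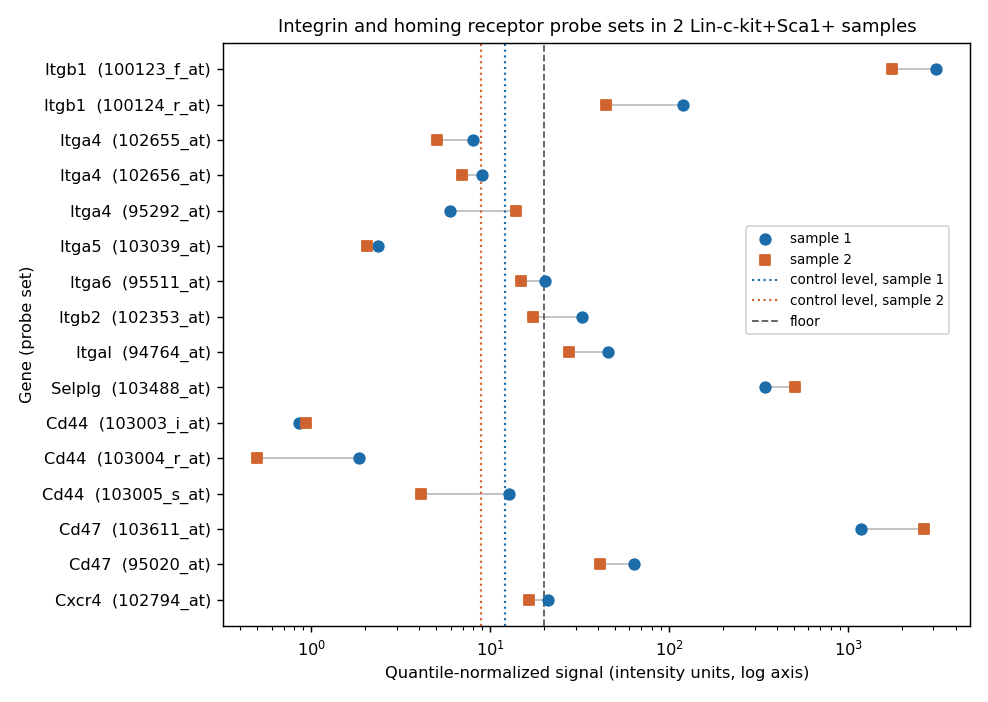
Signal of each of the 16 probe sets in sample 1 (circles) and sample 2 (squares), on a log axis in intensity units, with the control level of each sample (dotted) and the floor of 20 (dashed). The strongest probe sets of Itgb1 (3119 and 1755) and Cd47 (1178 and 2667) lie far above the floor in both samples, and all probe sets of Itga4, Itga5 and Cd44 lie below the floor.

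The promoters of Itgb1 and Cd47 are shown because these receptors were furthest apart between the samples, in opposite directions, and that of Cxcr4 because it is the chemokine receptor of the set. Each is the 250 bases before the start of the gene, 5′ to 3′ on the gene's own strand, from RefSeq on GRCm38.p6. Capitals mark the GC box core GGGCGG and the TATA motif TATAAA, each searched on both strands. Itgb1 lies at chr8:128685404-128685653 on the plus strand, Cd47 at chr16:49855404-49855653 on the plus strand and Cxcr4 at chr1:128592300-128592549 on the minus strand.
Itgb1: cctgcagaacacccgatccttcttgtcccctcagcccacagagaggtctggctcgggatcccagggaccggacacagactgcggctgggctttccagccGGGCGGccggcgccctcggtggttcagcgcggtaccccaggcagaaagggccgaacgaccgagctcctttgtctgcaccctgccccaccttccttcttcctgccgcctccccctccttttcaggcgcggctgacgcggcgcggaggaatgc
Cd47: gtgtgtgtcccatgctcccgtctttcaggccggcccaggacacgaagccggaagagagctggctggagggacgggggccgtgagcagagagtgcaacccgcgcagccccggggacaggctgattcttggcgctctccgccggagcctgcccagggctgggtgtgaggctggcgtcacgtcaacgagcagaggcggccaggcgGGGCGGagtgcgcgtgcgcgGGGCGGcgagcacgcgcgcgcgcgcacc
Cxcr4: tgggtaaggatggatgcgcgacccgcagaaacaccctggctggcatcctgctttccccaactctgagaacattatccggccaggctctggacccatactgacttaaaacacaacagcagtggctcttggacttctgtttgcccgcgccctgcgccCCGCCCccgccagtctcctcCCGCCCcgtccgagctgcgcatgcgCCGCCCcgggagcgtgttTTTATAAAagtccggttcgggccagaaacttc

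The windows of Itgb1 and Cd47 were rich in G and C (68% and 73.2%, with 21 and 30 CG pairs), against medians of 52.4% and 6 over 32851 windows of the same length. GGGCGG occurred once in the window of Itgb1, in 2 places in that of Cd47 and in 3 in that of Cxcr4, and 32.7% of all windows hold it. TATAAA was found in the window of Cxcr4, where overlapping matches on both strands form a stretch that begins 32 bases before the start, and in 12.4% of all windows. Of the 6 members with a window in the table, 5 held GGGCGG and 1 held TATAAA. These are matches of letters, and the arrays measured transcripts, not promoters.

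The beta subunit shared by the VLA integrins was measured in both samples, while of the 3 alpha partners in the set (Itga4, Itga5 and Itga6) only Itga6 was. Among other alpha subunits that can pair with it, Itga3, Itga7 and Itgav also passed the control level, each by only some of its probe sets. Their strongest gave 15.1 in sample 1 and 16.9 in sample 2 (Itga3, under the floor), 39.4 and 17.9 (Itga7), and 72.5 and 193 (Itgav). Itga2 (11.7 and 3.66) and Itga8 (11.6 and 6.48) did not pass. Itgb1, which encodes the shared beta subunit, gave 3119 in sample 1 and 1755 in sample 2 with its strongest probe set, 100123_f_at (11.19 ± 0.59 on the log2 scale, mean and SD, n = 2). Its other probe set, 100124_r_at, gave 120 and 44.3. Both probe sets were higher in sample 1, by 1.78-fold and 2.70-fold. Of the 3346 genes with both signals over the floor, 29.6% were at least as far apart as Itgb1 by its strongest probe set. In the array maker's naming, f marks a probe set whose probes are shared by a family of similar sequences, and r one for which a design rule was dropped. The strongest signal of Itgb1 could therefore include other transcripts, which was not tested.

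Itga4, the alpha subunit of VLA-4, the receptor for Vcam1 and fibronectin, was not above the control level in both samples by any of its 3 probe sets. Probe set 102655_at gave 8.05 in sample 1 and 5.04 in sample 2, and 102656_at gave 9.05 and 6.93, all under the control levels. Probe set 95292_at gave 5.96 in sample 1 and 14.02 in sample 2, above the control level in sample 2 only. Itga5, the alpha subunit of the fibronectin receptor VLA-5, had 2.36 and 2.06 by its single probe set, under both control levels. Itga6, the alpha subunit of the laminin receptor VLA-6, had 20.3 in sample 1 and 14.9 in sample 2. Both were above the control levels, and neither was clear of the floor. A low signal says that these probe sets gave little above background, not that the transcript was absent.

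Both subunits of the leukocyte integrin LFA-1, which binds Icam1 and Icam2, were measured and higher in sample 1. Itgal, its alpha subunit, gave 45.4 in sample 1 and 27.5 in sample 2 (5.14 ± 0.51 on the log2 scale, SD, n = 2), a 1.65-fold difference that 35.5% of genes over the floor equalled or passed. Itgb2, its beta subunit, had 32.4 and 17.4 and was at least 1.62-fold higher in sample 1. Both genes were higher in the same sample, and each rests on 1 probe set. Itgb2 also pairs with Itgam and Itgax, of which Itgam, the myeloid partner, was not above the control level (3.63 and 1.498). Itgax, the partner found on dendritic cells, had 23.2 and 26.4.

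Of the selectin ligand and the hyaluronan receptor, only the first was measured. Selplg, which encodes the mucin PSGL-1 that binds P-selectin, gave 343 in sample 1 and 503 in sample 2 (8.70 ± 0.39, SD, n = 2), 1.46-fold higher in sample 2. Differences of that size or more were found in 47.9% of genes over the floor. Cd44 was not above the control level in both samples by any of 3 probe sets. Probe set 103005_s_at, whose probes match several transcripts, had 12.7 in sample 1, just over the control level of 12.1, and 4.08 in sample 2. The others, 103003_i_at and 103004_r_at, had 0.852 and 0.937, and 1.84 and 0.50, under the control levels.

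Cd47 was the only member 2-fold or more apart by the probe set used, and its other probe set went the other way. Probe set 103611_at gave 1178 in sample 1 and 2667 in sample 2 (10.79 ± 0.83 on the log2 scale, SD, n = 2), 2.26-fold higher in sample 2. Probe set 95020_at gave 63.2 and 41.0, or 1.54-fold higher in sample 1. Averaged over both probe sets on the log2 scale, Cd47 differed by -0.28 and was no longer 2-fold apart, while Itgb1 then differed by 1.13. A difference as large as that of 103611_at was seen in 15.6% of genes over the floor.

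Such disagreement was common on these arrays. Of 330 genes with exactly 2 probe sets over the floor in both samples, 147 (44.5%) had one probe set higher in sample 1 and the other higher in sample 2. Where the strongest of the 2 was at least 2-fold apart, as for Cd47, this held for 33 of 95 genes (34.7%). The direction of a difference therefore rested on the probe set for many genes, and 6 of the 10 members had no further probe set to compare. The signals of the 3′ and 5′ probe sets for Gapdh and Actb differed more in sample 2. The ratio of 3′ to 5′ signal was 11.2 in sample 1 and 19.0 in sample 2 for Gapdh, and 10.4 and 22.2 for Actb. For Tfrc it was 8.52 and 7.57. The 5′ signals of Tfrc, 2.48 and 2.25, were under the control levels, so its ratios are to background and cannot be compared. The part of the 3′ to 5′ difference in the differences of single probe sets was not tested.

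The chemokine receptor Cxcr4 was just measurable. Its 1 probe set gave 21.1 in sample 1 and 16.5 in sample 2, over both control levels. Sample 1 lay just over the floor and sample 2 under it, so no fold can be read.

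Counted over the set, 5 of the 7 measured members had their higher signal in sample 1 and 2 had it in sample 2, with a median difference of 0.077. All 4707 genes above the control level had a median of 0: sample 1 was higher for 2211 of them, sample 2 for 2046, and 450 were at the floor in each. The median absolute difference was 0.69 for the 7 members and 0.45 for all genes. None of the 7 was 2-fold or more higher in sample 1 and 1 was in sample 2, against 10.9% and 9.58% of all genes above the control level. Among genes over the floor in both samples, 1 of 4 members and 22.5% of genes were 2-fold or more apart. With so few members, these counts do not set them apart from other genes. By probe set, 7 of 9 were higher in sample 1, and the 2 that were not were those of Selplg and one of Cd47.

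**Figure D2:**
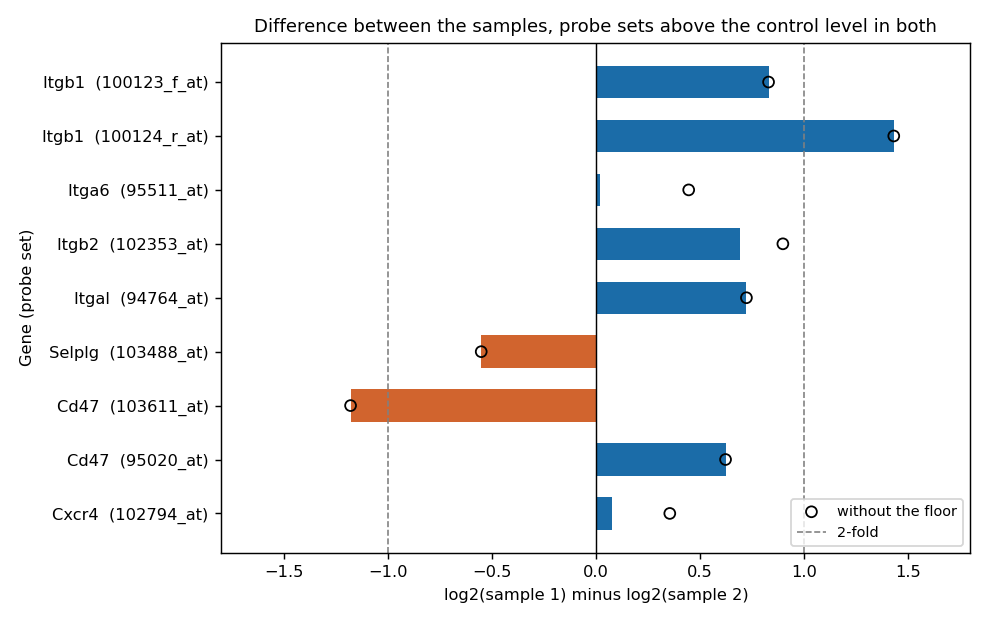
Difference log2(sample 1) minus log2(sample 2) for the 9 probe sets that passed the control level in both samples, with signals under 20 set to 20 (bars) and without that floor (open circles). Bars to the right are higher in sample 1, dashed lines mark 2-fold, and the 2 probe sets of Cd47 point in opposite directions.

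Genes that act with these receptors were taken from 8 lists of partners. Of 174 of their genes on the array, 108 (62.1%) were above the control level, against 57.0% of all genes, and 23 of the 108 (21.3%) were 2-fold or more apart, 12 higher in sample 1 and 11 higher in sample 2, against 20.5% of all genes above the control level. Their median difference was 0. The 57.0% of all genes is also the share to set beside the count above the control level of each list below.

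Among the other integrin subunits 6 of 12 were above the control level (50%), and 1 was when all probe sets had to pass. Itgav, the alpha subunit of vitronectin receptors, was the only one 2-fold or more apart, with 72.5 in sample 1 and 193 in sample 2 by a family probe set and, by its others, 2.67 and 7.38, and 6.33 and 12.5. Itgb7, the other beta partner of Itga4, had 44.5 and 45.7 by its strongest probe set and hardly differed. A family probe set of Itgb7 gave 4.1 and 3.7, under the control levels. Itgb5, which pairs with Itgav, had 31.3 and 28.4 by a family probe set and 9.25 and 24.1 by its other. Itgb3, the beta subunit of the platelet fibrinogen receptor, was not above the control level (2.48 and 3.09).

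Ligands of the members were above the control level in 6 of 23 cases (26.1%), against 57.0% of all genes. That count moved to 10 when sample 1 alone was judged and to 15 with the 75th percentile as control level. It was 3 when all probe sets had to pass and 2 at the stricter level of organ genes given below. Over all genes the shares under these 4 settings were 64.3%, 72.5%, 44.9% and 29.1%. Many of these ligands can be made by stromal or vessel cells, and the part of this in the count was not tested. Vcam1, the ligand of VLA-4, had 22.2 and 17.5 by its strongest probe set. Its others went the other way, with 5.5 and 24.5, and 1.84 and 10.5, above the control level in sample 2 only. The chemokine gene Cxcl12 had 19.6 and 12.5 by its strongest probe set, under the floor. Icam1 (2.05 and 3.86) and the Cd47 receptor gene Sirpa (8.70 and 5.04) were not above the control level. The fibronectin gene Fn1 had 40.2 and 32.9. Icam2, an LFA-1 ligand that blood cells also make, had 74.8 in sample 1 and 29.4 in sample 2 and was the one ligand 2-fold or more apart. Lamc1, a laminin chain gene, had 66.9 and 44.5 by a family probe set and 19.0 and 8.58 by its other.

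Integrin adaptors and activators were above the control level in 23 of 31 cases (74.2%), with 14 higher in sample 2 and 9 higher in sample 1 and a median difference of -0.32. Tln1, the gene of talin, had 783 in sample 1 and 1066 in sample 2 by its strongest probe set. That probe set is of the r type, for which a design rule was dropped. Its others gave 89.98 and 102, and 9.25 and 22.6. The weakest was above the control level in sample 2 only. Fermt3, the kindlin of blood cells, had 132 and 167. Those furthest apart were Rassf5, which encodes the Rap1 effector of LFA-1 activation (56.1 and 219), and the adhesion kinase gene Ptk2b (56.5 and 205), both higher in sample 2. Rap1a, one of the Rap1 genes, had 20.5 and 48.2 by one probe set and 14.1 and 15 by the other. Rap1b was not above the control level (13.4 and 4.49). Apbb1ip, the gene of the adaptor that joins Rap1 to talin, went the other way with 225 and 98.7, as did the adaptor gene Skap2 with 76.5 and 30.5. Rap1 effectors were thus found on both sides, and 7 of the 23 genes (30.4%) were 2-fold or more apart, against 20.5% of all genes above the control level.

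Chemokine receptor signalling genes were above the control level in 21 of 26 cases (80.8%), against 57.0% of all genes. At the stricter level of organ genes given below, 14 passed, against 29.1% of all genes. Of the 21, 6 (28.6%) were 2-fold or more apart, against 20.5% of all genes above the control level. Gnai2, the inhibitory G protein subunit through which Cxcr4 signals, had 3294 and 2440 with its family probe set. Its others, at 141 and 317, and 532 and 853, were higher in sample 2. Gnai3, a related subunit gene, had 159 and 36.9 and Vav1, an exchange factor for Rac, 79.0 and 27.1, both higher in sample 1. The actin regulator genes Was (34.5 and 111) and Cdc42 (54.0 and 116) were higher in sample 2. Rac2, the Rac of blood cells, had 212 and 243.

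Enzymes that build selectin ligands were above the control level in 10 of 16 cases (62.5%). Fut7, the fucosyltransferase that completes the selectin-binding sugar on Selplg, had 89.8 in sample 1 and 46.3 in sample 2, and the galactosyltransferase gene B4galt1 170 and 89.2. Both were higher in sample 1, whereas Selplg was higher in sample 2. Gcnt1, which starts the branch that carries this sugar, had 20.5 and 24.4, and St3gal4, a sialyltransferase gene, 34.4 and 36.6. Fut4 was above the control level in sample 2 only (5.58 and 22.2).

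Genes that link Cd44 to the cytoskeleton and other hyaluronan receptors were above the control level in 9 of 11 cases (81.8%). The share of all genes was 57.0%. Of the 11, 4 passed the stricter level of organ genes given below, against 29.1% of all genes. Cd44 itself did not count as measured. The linker genes Ezr (55.5 and 72.8), Msn (72.2 and 90.6) and Rdx (36.5 and 29.0) differed little between the samples. Slc9a3r1, an ezrin-binding scaffold gene, had 41.5 and 176, and the invariant chain gene Cd74, whose product can associate with Cd44, had 24.4 and 93.5. Ank1, an ankyrin gene, had 132 and 78.7 by a family probe set. Its others gave 39.1 and 39.4, and 10.9 and 12.7, and did not show that difference.

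Other adhesion and homing receptors were above the control level in 23 of 38 cases (60.5%), with 3 of the 23 (13.0%) at least 2-fold apart, against 20.5% of all genes above that level. The tetraspanin gene Cd37 (57.5 and 127) was higher in sample 2, and the junction antigen gene Pecam1 (49.4 and 24.3) higher in sample 1. Glg1, which encodes an E-selectin ligand, had 91.1 and 36.7 by one probe set but 33.7 and 54.9 by the other. S1pr1, the receptor that draws blood cells out to the circulation, had 20.1 and 37.9 by a family probe set and 3.01 and 3.97 by its other.

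Proteases of progenitor release and their inhibitors were above the control level in 10 of 17 cases (58.8%). The neutrophil elastase gene Elane, whose product can cut Vcam1 and Cxcl12, had 220 and 88.4. The sheddase gene Adam10 had 54.1 and 27.6 by one probe set and 9.43 and 18.4 by another. Mmp14 (36.1 and 52.0), a membrane protease gene, and the cathepsin gene Ctsk (21.6 and 29.5) were higher in sample 2. Dpp4, which encodes the peptidase that inactivates Cxcl12, and Mmp9 were not above the control level.

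**Figure D3:**
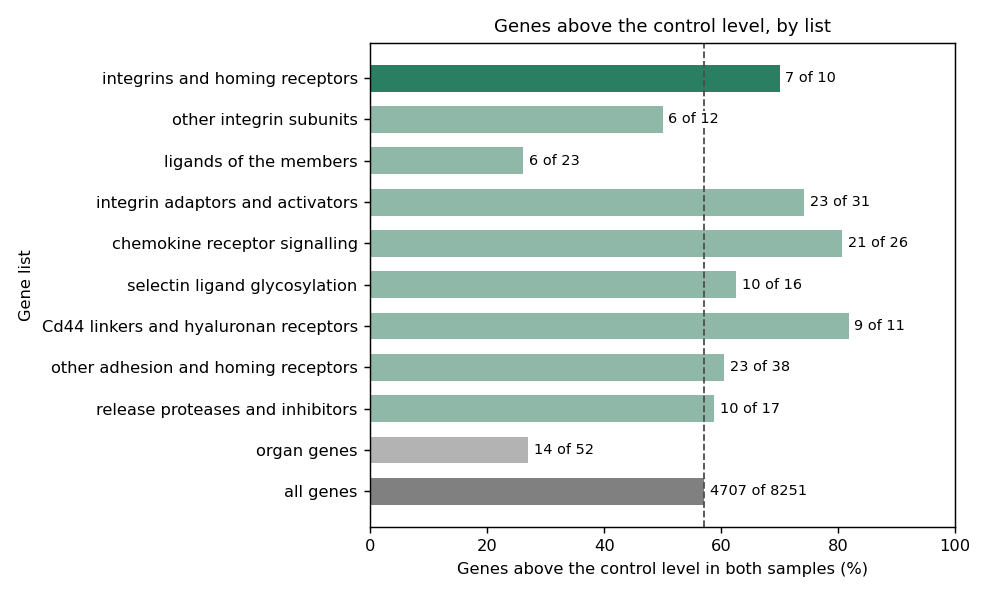
Percent of the genes on the array above the control level in both samples, for the 10 integrins and homing receptors, 8 lists of partner genes, genes of other organs and all genes, with the counts beside the bars and the share of all genes as a dashed line. The receptors stand at 7 of 10, their ligands at 6 of 23 and the genes of other organs at 14 of 52.

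Genes listed as markers of progenitors passed the control level, as did genes listed for other cell types. Of 11 progenitor genes on the array 9 were above it, against 57.0% of all genes, the share to set beside each count in this paragraph. At the stricter level of organ genes given below, 6 of the 11 passed, against 29.1% of all genes. With lists this short, the counts do not identify cell types. Kit itself had 25.8 and 19.3, and Sca-1 (Ly6a) was not analysed here. Cells that also carry integrins were followed by genes listed as their markers. For 4 lists the sample with the higher sum depended on 1 gene. Monocyte and macrophage genes (7 of 10 above the control level) summed to 566 in sample 1 and 344 in sample 2, with Itgam and Adgre1 not above it. By their strongest probe sets Csf1r, Cd14 and Lyz2 were higher in sample 1, and Ctss and Mpeg1 higher in sample 2. The other probe set of Csf1r gave 34.75 in sample 1 and 37.4 in sample 2, above both control levels and higher in sample 2. The other probe sets of Lyz2 and Mpeg1 were under the control levels. Neutrophil genes (7 of 10) summed to 583 and 1162. Erythroid genes (4 of 6) summed to 314 and 891, of which Hba-a1 made up 30.1 and 670. Without Hba-a1 they summed to 284 and 221, with Klf1 at 215 and 80.5 and Gata1 at 36.9 and 26.9, both higher in sample 1, and Slc4a1 at 19.5 and 68.4. Genes listed as stromal and endothelial (10 of 16) summed to 891 and 2107, of which Eng made up 419 and 1700. Whether the Eng signal came from the sorted cells themselves was not tested. Without Eng this list summed to 472 and 408. By their strongest probe sets Pecam1, Col1a1, Bgn and Dcn were higher in sample 1, and Col1a2 and Pdgfra higher in sample 2. The other probe set of Bgn went the other way, with 18.8 in sample 1 and 56.85 in sample 2, above both control levels. That of Col1a1 gave 1.40 and 12.9, above the control level in sample 2 only. Col1a2 was read by a probe set of the r type, and its other gave 3.85 and 3.46, under the control levels. Cdh5 and Tek were not above the control level. B cell genes (6 of 9) summed to 553 and 647, of which Ptprcap made up 369 and 422. Without Ptprcap they summed to 183 and 225. T and NK cell genes (1 of 9) summed to 66.6 and 86.2 and megakaryocyte genes (1 of 6) to 89.5 and 107. Without the gene that differed most, Thy1 for T and NK cells and Vwf for megakaryocytes, these last sums were 52.5 and 43.7, and 56.5 and 53.5. Their part in the receptor differences was not tested, and more cells of a type and more RNA per cell cannot be told apart in such samples.

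A stricter level was taken from genes of other organs. Of 52 such genes on the array, such as those of liver, pancreas, brain and muscle, 14 (26.9%) were above the bacterial control level. Against the 90th percentile of their probe sets, 30.8 in sample 1 and 30.6 in sample 2, 3 of the 10 receptors (Itgb1, Selplg and Cd47) passed in both samples, or 30%, which is close to the 29.1% of all genes. Itgal and Itgb2 passed it in sample 1 only.

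Itgb1, Selplg and Cd47 kept their directions under other ways of processing, and the sizes held less well. Their strongest signals lie far above the floors, so the floor settings could not change these values. The offset could not turn a direction. Selplg has 1 probe set, so the mean over probe sets repeats its value. For Cd47, 6 settings used 103611_at alone, and 95020_at was higher in sample 1. Itgb1 was higher in sample 1 by 0.55 to 1.13 on the log2 scale under 7 settings, and Selplg higher in sample 2 with differences of -0.61 to -0.47. Cd47 had -1.38 to -1.16 under 6 of them and -0.28 as a mean over probe sets.

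**Figure D4:**
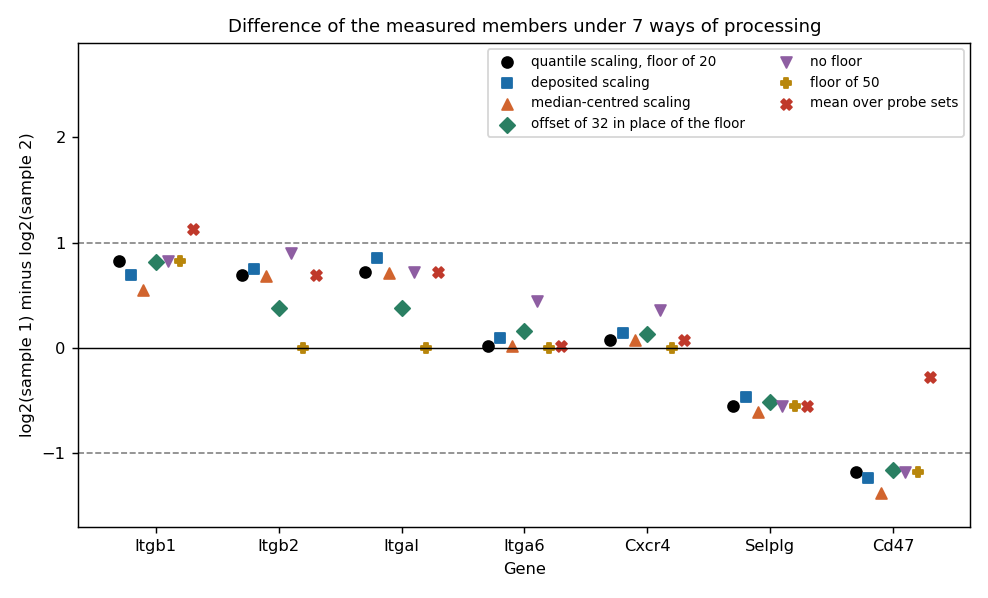
Difference log2(sample 1) minus log2(sample 2) of the 7 measured members under 7 ways of processing, with dashed lines at 2-fold. Itgb1 stays above 0 and Selplg and Cd47 stay below 0 in all 7, while Itgb2, Itgal, Itga6 and Cxcr4 reach 0 with a floor of 50.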

How the data were processed

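RNA of 2 samples of sorted mouse bone marrow cells was measured on Affymetrix mouse arrays. The deposited values are linear signal intensities of 12488 probe sets. Their mean was 53.9 in both samples. The sources used here name no software or scaling. The 2% trimmed means differed by 5.97%, over the tolerance of 5%, so both arrays were quantile-normalized. Signals under 20 were set to 20 before log2 (57.8% and 57.6% of values). Of 12422 probe sets besides 66 controls, 10833 named 1 gene in the platform's annotation, 396 several and 1193 none, and those naming several were left out. The control level came from 15 bacterial probe sets. No detection calls or probe-level values were used, and the number of arrays, 2, limits the precision. No test was possible. Named genes are all members, the 2 furthest apart in each direction of each partner list with both signals over the floor, and fixed direct partners; Thbs1, Itga2b and Ptk2 were not analysed here. Members and lists were chosen with earlier results of these data known. Alternatives varied the scaling, floor, offset, control level, probe set rule and samples. The gene table was tested on simulated data. Python 3.11.15, numpy 2.4.6 and pandas 2.3.3 were used.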

Additional observations from a re-analysis of the deposited data

How the results depend on the processing

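The count of 7 receptors above the control level was 7 under the other scalings, floors and the offset. That was close to fixed in advance, since passing was judged before the floor or offset and scaling keeps the order within an array. It was also 7 under the other probe set rules and the highest bacterial probe set. With the 75th percentile it was 8, with Itga4 added. Judged in a single sample it was 8 in each, with Itga4 in sample 2 or Cd44 in sample 1. Without the filter all 10 count by construction. It was 3 at the level of the organ genes, where fewer genes pass by construction (2402 of 8251). The count of receptors 2-fold or more apart was 1 under every alternative, but with the mean over probe sets it was Itgb1 and not Cd47. Their median difference ran from 0 (floor of 50) to 0.45 (no floor), and was -0.55 at the organ genes' level, over the 3 receptors left. Scaling moved the split of all genes 2-fold or more apart, 512 higher in sample 1 and 451 in sample 2, to 585 and 385 as deposited and to 473 and 474 with median-centring. Their total of 963 was 383 with the offset of 32 and 474 with the floor of 50. Beside the receptor counts, 449 values for single receptors and lists were recomputed, of which 48 moved by over 1.5 times (counts) or by more than the replicate SD of 0.59 (differences) and 401 did not. List counts under the scaling, floor and offset settings are among the 401 and could hardly move. The 14 organ genes became 25 in sample 2 alone, 27 with the 75th percentile, 7 when all probe sets had to pass and 8 with their mean. Weak receptors are limited by signal over background: with a floor of 50 Itgal, Itgb2, Itga6 and Cxcr4 had no difference, because all their signals lie under it.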
